A study of Mus musculus with 8 samples.

Results

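The zinc-dependent histone deacetylase (HDAC) genes other than *Hdac3* were followed in mouse embryonic stem cells (ESC) that had lost *Hdac3*. They were taken by name, as every numbered *Hdac* symbol in the tables other than *Hdac3*, and there were 10 of them among 24542 gene symbols. They are *Hdac1*, *Hdac2* and *Hdac8* of class I, *Hdac4*, *Hdac5*, *Hdac7* and *Hdac9* of class IIa, *Hdac6* and *Hdac10* of class IIb, and *Hdac11* of class IV. The cells were the female hybrid line TX1072, a cross of *Mus musculus castaneus* (Cast) and C57BL/6 (B6) in which doxycycline (DOX) switches on *Xist* from the B6 X chromosome. RNA-seq was made of the parental line (*Hdac3*+/+) and of 2 knockout clones (*Hdac3*-/-) derived from it with CRISPR/Cas9 deletions of *Hdac3* exons, either without DOX (0 hr) or after 24 hr of DOX at 1 µg/ml. All 4 groups had 2 samples each, carried the same inducible *Xist* allele and were grown on gelatin in serum with LIF and the inhibitors of 2i medium. The *Hdac3*+/+ samples are duplicates of 1 line and the *Hdac3*-/- samples are described as different clones, so p-values below cover the spread between duplicates on 1 side and between clones on the other. The labels do not say which clone is replicate 1.

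HDACs remove acetyl groups from lysines. The class I enzymes HDAC1 and HDAC2 are the catalytic subunits of the Sin3, NuRD, CoREST and MiDAC corepressor complexes, while HDAC3 works in the NCoR/SMRT complex and HDAC8 acts outside these assemblies, with the cohesin subunit SMC3 as a well known substrate. The class IIa enzymes have little deacetylase activity of their own, bind MEF2 transcription factors and can bring the NCoR/SMRT complex with HDAC3 to their targets. HDAC6 deacetylates tubulin in the cytoplasm, HDAC10 acts on polyamines and HDAC11 removes fatty acyl groups. *Hdac6* and *Hdac8* lie on the X chromosome, which in this system is silenced on the B6 allele once *Xist* is induced.

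The tables held between 6940375 and 17125156 reads per sample, of which 30.1% to 31.6% were assigned to an allele. *Hdac3* itself was at 38.2, 42.7, 41.6 and 43.1 CPM (TMM-normalised counts scaled to library size) in the *Hdac3*+/+ samples and at 5.82, 7.45, 5.54 and 7.05 CPM in the *Hdac3*-/- samples, each given in the order 0 hr replicate 1, 0 hr replicate 2, 24 hr replicate 1 and 24 hr replicate 2, which is used throughout. It fell by 2.60 on the log2 scale at 0 hr (adjusted p = 0.00048, edgeR quasi-likelihood test). *Xist* went from 10.3 and 7.17 CPM to 1694 and 1725 CPM in *Hdac3*+/+ and from 17.4 and 17.0 to 2049 and 1568 CPM in *Hdac3*-/-. The 9 ESC markers summed to 4470 to 4750 CPM in *Hdac3*+/+ and to 5010 to 5130 CPM in *Hdac3*-/-, and at 0 hr 2 of the 9 were called higher and 2 lower, with *Nanog* at 0.68 and *Dppa3* at −2.21 on the log2 scale. The 10 primed and lineage markers summed to 53.3 to 99.1 CPM, with overlap between genotypes. The 8 fibroblast markers summed to 40.9 to 59.7 CPM in the *Hdac3*+/+ and to 29.0 to 40.4 CPM in the *Hdac3*-/- samples, without overlap. Of these 8, *Col1a1* (16.2 to 29.2 CPM), *Thy1* (11.1 to 27.9 CPM) and *Col1a2* (0.705 to 3.15 CPM) were detected, with a median log2 difference of −0.56 at 0 hr and −0.66 at 24 hr and 0 of the 3 called, and the other 5, *Dcn*, *Lum* and *Postn* among them, stayed under 1 CPM in every sample. The part of these marker shifts in the results below was not tested, and in bulk RNA fewer cells of a type and less RNA per cell cannot be told apart.

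Levels were first ordered per transcript length, as TPM from the exon lengths of GENCODE M21. The study's mapping used refFlat, so the exons behind the counts can differ from these lengths. The order of genes, and the sums and shares of TPM below, carry that limit. In *Hdac3*+/+ cells at 0 hr *Hdac1* was highest at 172 ± 1.27 TPM, followed by *Hdac6* at 74.5 ± 4.45 TPM and *Hdac2* at 63.6 ± 1.91 TPM, and the samples of these 3 genes did not overlap. In *Hdac3*+/+ cells at 24 hr *Hdac1* was at 188 ± 4.81 TPM (SD, n = 2, as for all means here). *Hdac2* and *Hdac6* followed at 63.5 ± 0.778 and 62.8 ± 8.91 TPM, and their samples overlapped. *Hdac3* came next at 37.4 ± 0.0354 TPM. *Hdac5* and *Hdac4*, which also overlapped, had 11.2 ± 1.09 and 10.3 ± 0.332 TPM, and *Hdac8* had 4.91 ± 0.563 TPM. *Hdac10*, *Hdac7*, *Hdac11* and *Hdac9* were at or below 2.38 TPM. In *Hdac3*-/- cells *Hdac6* was in the second place at both times, again without overlap with *Hdac2*, at 99.5 ± 15.9 against 53.6 ± 0.948 TPM at 0 hr and at 92.1 ± 19.2 against 56.4 ± 1.58 TPM at 24 hr. The remaining *Hdac3* transcript, at 5.73 ± 0.907 TPM at 0 hr, overlapped *Hdac8* at 5.81 ± 0.463 TPM.

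**Figure D1:**
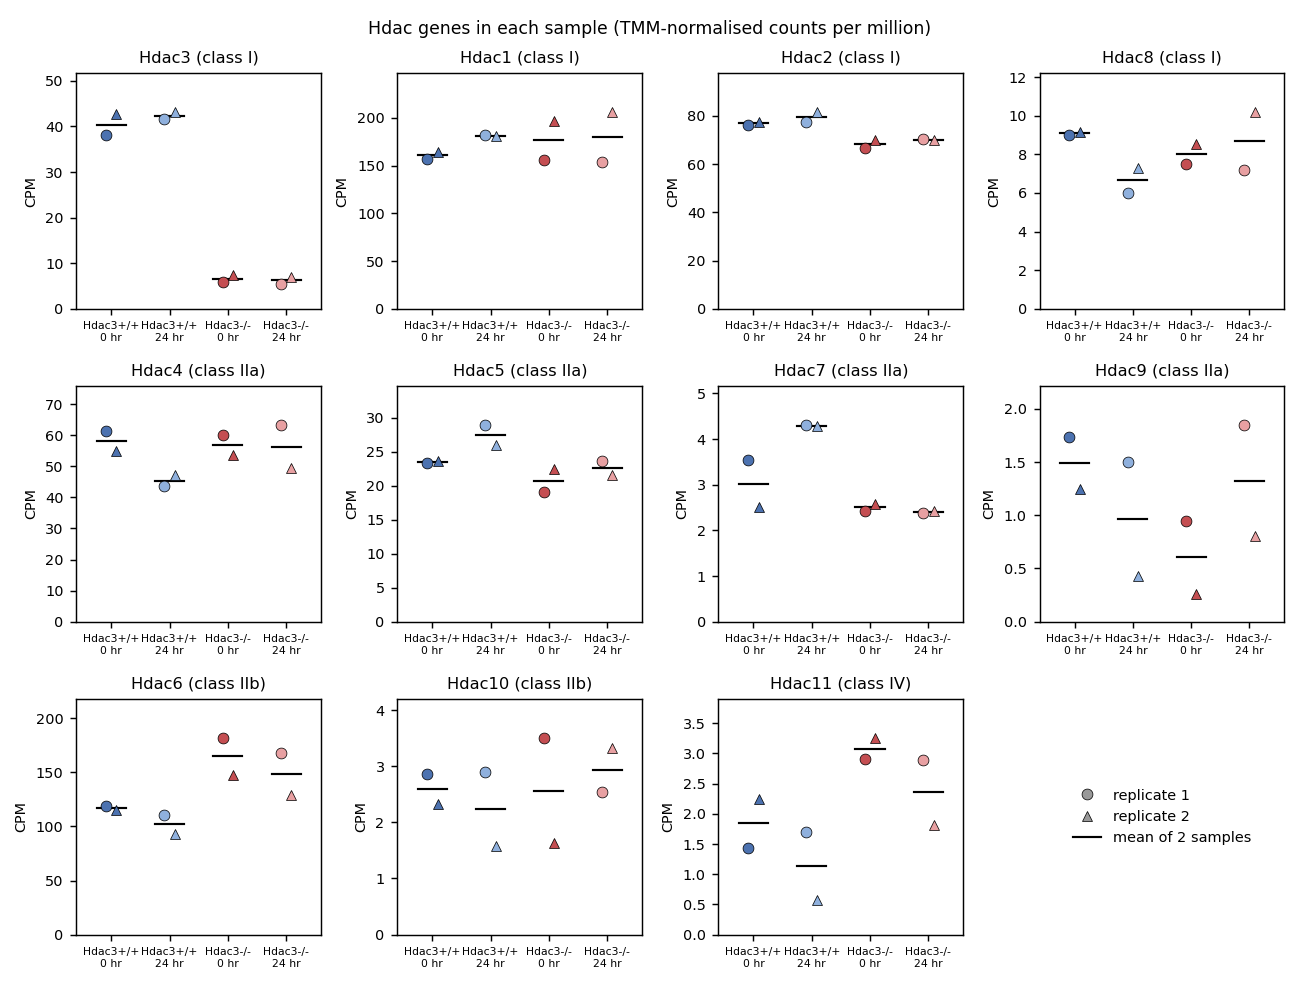
TMM-normalised CPM (vertical axis of each panel, starting at 0) of *Hdac3* and the 10 other *Hdac* genes in each of the 4 groups (horizontal axis), with circles for replicate 1, triangles for replicate 2 and a line at the mean of 2 samples. *Hdac6* lies between 129 and 182 CPM in the 4 *Hdac3*-/- samples and between 93.4 and 119 CPM in the 4 *Hdac3*+/+ samples.

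To ask whether loss of *Hdac3* changes the other HDAC genes, *Hdac3*-/- was compared with *Hdac3*+/+ at each time. All 10 genes passed the filter on low counts, at least 10 reads in at least 2 samples, in both fits. At 0 hr 1 of the 10, *Hdac6*, was called, and it was higher. Over all genes, 13.6% of the 13493 tested were called at an adjusted p of 0.05. At 24 hr 0 of the 10 were called by edgeR's quasi-likelihood test, where 11.3% of 12925 genes were. In that test 2 of the 10 (*Hdac6* and *Hdac7*) and 3603 of all 12925 genes had an unadjusted p under 0.05. DESeq2 called 1 of the 10, *Hdac6*, and 1244 of the 12925 genes. The median log2 change of the 10 was −0.08 at 0 hr and 0.34 at 24 hr, against 0.00 over all genes at both times (0.0037 and 0.0030). At 24 hr 6 of the 10 were above 0 and 4 below. Of those above, *Hdac8* (0.39), *Hdac9* (0.39), *Hdac10* (0.35) and *Hdac11* (0.98) had 3 to 101 reads per sample and confidence intervals that included 0. *Hdac4* (0.32) and *Hdac6* (0.54) had more reads. Those below were *Hdac1* (−0.02), *Hdac2* (−0.18), *Hdac5* (−0.28) and, on 24 to 43 reads, *Hdac7* (−0.84). The median itself was not tested. With a further limit of an absolute log2 change above 1, none of the 10 passed at 0 hr, where 6.28% of all genes did. Taking both times, the 4 *Hdac3*-/- samples lay above the 4 *Hdac3*+/+ samples for *Hdac6*, below them for *Hdac2*, and the groups overlapped for the other 8. Of 12859 genes 16.7% lay above and 18.2% below in this way, so 1 of 10 in each direction is not above the share of all genes.

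**Figure D2:**
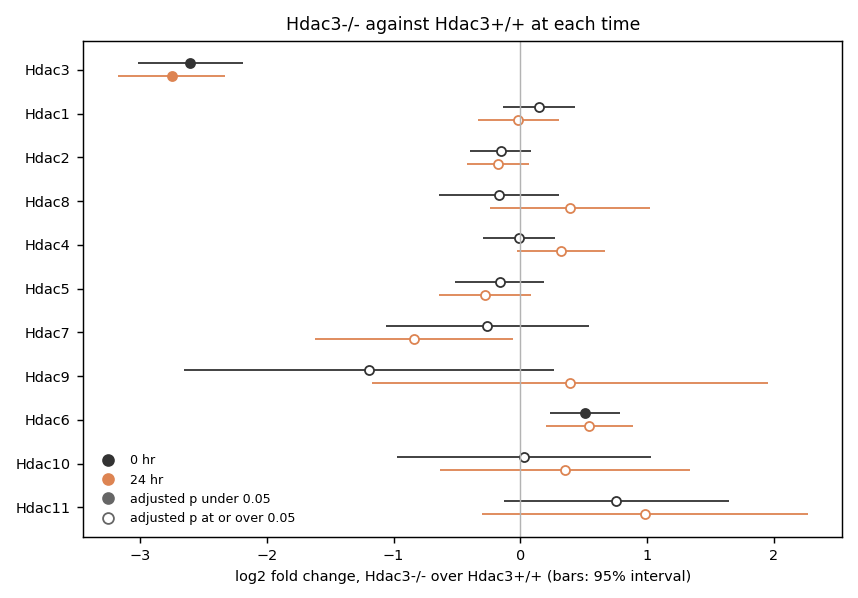
Log2 fold change of *Hdac3*-/- over *Hdac3*+/+ (horizontal axis) with its 95% interval from edgeR for *Hdac3* and the 10 other genes (rows) at 0 hr and 24 hr, filled where the adjusted p was under 0.05. *Hdac6* is the only one of the 10 whose interval stays above 0 at both times, from 0.23 to 0.79 at 0 hr and from 0.20 to 0.885 at 24 hr, and only the 0 hr value is filled.

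Among the class I genes, *Hdac1* (chromosome 4, 129516104 to 129542713, minus strand, GRCm38) had 157, 164, 182 and 181 CPM in *Hdac3*+/+ and 156, 197, 153 and 206 CPM in *Hdac3*-/-. The knockout samples spread to both sides of the parental ones, with replicate 1 lowest and replicate 2 highest at both times. Relative to the mean of the *Hdac3*+/+ samples, replicate 1 was at 0.972 and 0.846 times and replicate 2 at 1.23 and 1.13 times that level at 0 hr and 24 hr. The log2 change was 0.15 ± 0.12 (SE, adjusted p = 0.466) at 0 hr and −0.02 ± 0.14 (adjusted p = 0.959) at 24 hr. Without knockout replicate 1 the 0 hr value was 0.31 (adjusted p = 0.032), which rests on 1 knockout sample, with the spread taken from the parental duplicates. Of the 50-base runs in *Hdac1* transcripts 35.5% also occur in another annotated gene, most of them in the processed pseudogene *Gm10093*, so that reads could have been placed there and the *Hdac1* level is less certain. For *Hdac2* and *Hdac6* no such run was shared.

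*Hdac2* (chromosome 10, 36974544 to 37001889, plus strand), which encodes the closest paralog of HDAC1 and its partner in the same complexes, had 76.4, 77.5, 77.4 and 81.4 CPM in *Hdac3*+/+ and 66.7, 69.9, 70.3 and 69.9 CPM in *Hdac3*-/-. Every knockout sample was lower than every parental one, at 0.868 to 0.909 times the parental mean of its time. The log2 change was −0.16 ± 0.10 (SE, 95% interval −0.39 to 0.08, adjusted p = 0.351) at 0 hr and −0.18 ± 0.11 (−0.42 to 0.07, adjusted p = 0.318) at 24 hr, so neither passed the test.

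*Hdac8* (chromosome X, 102284639 to 102505359, minus strand) had 9.03, 9.17, 6.00 and 7.30 CPM in *Hdac3*+/+ and 7.48, 8.56, 7.21 and 10.2 CPM in *Hdac3*-/-, from 51 to 126 reads per sample. Both parental samples were lower after DOX, while the knockout samples overlapped between times. The share of all genes that separate between times was not counted. The difference between genotypes was −0.17 at 0 hr (adjusted p = 0.624) and 0.39 at 24 hr (adjusted p = 0.403) on the log2 scale. The noncoding gene *Gm14858* overlaps *Hdac8* on the other strand, and reads were counted with strand.

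*Hdac6* of class IIb (chromosome X, 7930120 to 7947889, minus strand), the tubulin deacetylase, was the 1 member called between genotypes. It was called as higher in *Hdac3*-/- at 0 hr, where 13.6% of all genes were called in either direction. Its level was 119, 115, 111 and 93.4 CPM in *Hdac3*+/+ and 182, 148, 168 and 129 CPM in *Hdac3*-/-, from 653 to 3060 reads, and no knockout sample overlapped a parental one. In both genotypes the lower value at each time was that of replicate 2. At 0 hr it was 1.42-fold higher (95% interval 1.17 to 1.73), a log2 change of 0.51 ± 0.12 (SE, adjusted p = 0.031). At 24 hr the ratio was 1.46 (1.15 to 1.85) with an adjusted p of 0.054. Replicate 1 of the knockout was at 1.55 and 1.65 times the parental mean at 0 hr and 24 hr, and replicate 2 at 1.26 and 1.27 times. The 0 hr call was lost without *Hdac3*+/+ replicate 1 (adjusted p = 0.173) or replicate 2 (adjusted p = 0.186) and in a fit of all 8 samples (adjusted p = 0.054), with log2 changes of 0.52, 0.49 and 0.50. In the first pair of these fits 1 parental sample was left and the spread came from the clones. At 24 hr the value passed in the 8-sample fit (adjusted p = 0.046), with DESeq2 (adjusted p = 0.019) and without low-count filtering (adjusted p = 0.00015). Leaving out knockout replicate 1 or 2 at 24 hr gave 0.34 (adjusted p = 0.017) and 0.73 (adjusted p = 1.6e-05), but these fits hold 1 knockout sample, take the spread from the parental duplicates alone and called 3302 and 3294 genes, against 1457 with all 4 samples.

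Since each read that covers a sequence difference can be given to an allele, the higher level could be followed on both X chromosomes. At 0 hr B6 reads of *Hdac6* were at 30.7 and 25.8 CPM in *Hdac3*+/+ and at 46.7 and 37.4 CPM in *Hdac3*-/-, and Cast reads at 35.2 and 33.6 against 54.0 and 42.1 CPM. Both alleles were thus higher in both knockout samples. Counted alone, B6 reads gave a log2 difference of 0.61 (adjusted p = 0.012) and Cast reads 0.52 (adjusted p = 0.058). These fits were chosen after seeing the data. The B6:Cast ratio at 0 hr did not differ beyond the spread between samples, with a log2 difference of 0.09 (95% interval −0.16 to 0.35, adjusted p = 0.875), in a comparison where 0.667% of 9595 genes were called and 0 of the 6 members tested. The 6 are *Hdac1*, *Hdac2*, *Hdac4*, *Hdac5*, *Hdac6* and *Hdac7*, which had at least 10 allelic reads in all 8 samples. In that comparison 0 members had an unadjusted p under 0.05, where 820 of the 9595 genes had.

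After 24 hr of DOX the d-score of *Hdac6*, the share of B6 among allelic reads, went from 0.466 and 0.434 to 0.323 and 0.300 in *Hdac3*+/+, and from 0.464 and 0.470 to 0.386 and 0.366 in *Hdac3*-/-. All 4 DOX samples were below all 4 samples at 0 hr. How many other genes separate between times in this way was not counted, so that order is a description. The exact 95% Clopper-Pearson intervals at 24 hr ran from 0.253 to 0.364 in *Hdac3*+/+ and from 0.330 to 0.417 in *Hdac3*-/-. These intervals cover counting error alone. B6 reads were at 18.1 and 15.6 CPM in *Hdac3*+/+ and at 34.4 and 26.1 CPM in *Hdac3*-/- at 24 hr, while Cast reads were at 37.9 and 36.3 CPM and at 54.7 and 45.2 CPM. The B6:Cast ratio fell by 0.85 on the log2 scale in *Hdac3*+/+ (SE 0.13, adjusted p = 0.00087). *Hdac6* was the 1 member of 6 called there, where 1.61% of all genes were called. In *Hdac3*-/- the change was −0.54 (SE 0.12, adjusted p = 0.066), and 0 of the 6 members were called against 0.406% of all genes. An unadjusted p under 0.05 was seen for 1 of the 6 and for 418 of the 9595 genes. This fit had no term for the replicate number. With a block for it within each genotype *Hdac6* was called in *Hdac3*-/- (adjusted p = 0.0001, edgeR), where 90 genes were. Adjusted over the 302 X-linked genes alone, *Hdac6* in *Hdac3*-/- passed (adjusted p = 0.0021), as did 40.1% of X-linked genes, against 75.5% in *Hdac3*+/+.

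The difference between genotypes in that fall was tested as an interaction. For *Hdac6* it was 0.31 on the log2 scale (95% interval −0.07 to 0.69, adjusted p = 1.0 over all genes and 0.181 over X-linked genes). None of the 6 members was called, where 0.208% of all genes and 31.8% of X-linked genes were. An unadjusted p under 0.05 was seen for 0 of the 6 and for 435 of the 9595 genes. The 301 X-linked genes other than *Xist* had a median change in B6:Cast ratio of −1.32 in *Hdac3*+/+ and −0.57 in *Hdac3*-/-, and a median interaction of 0.73, and 227 of them had a larger interaction than *Hdac6*. In the parental line *Hdac6*, at −0.85, stood above 220 of them, and in the knockout, at −0.54, above 157.

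**Figure D3:**
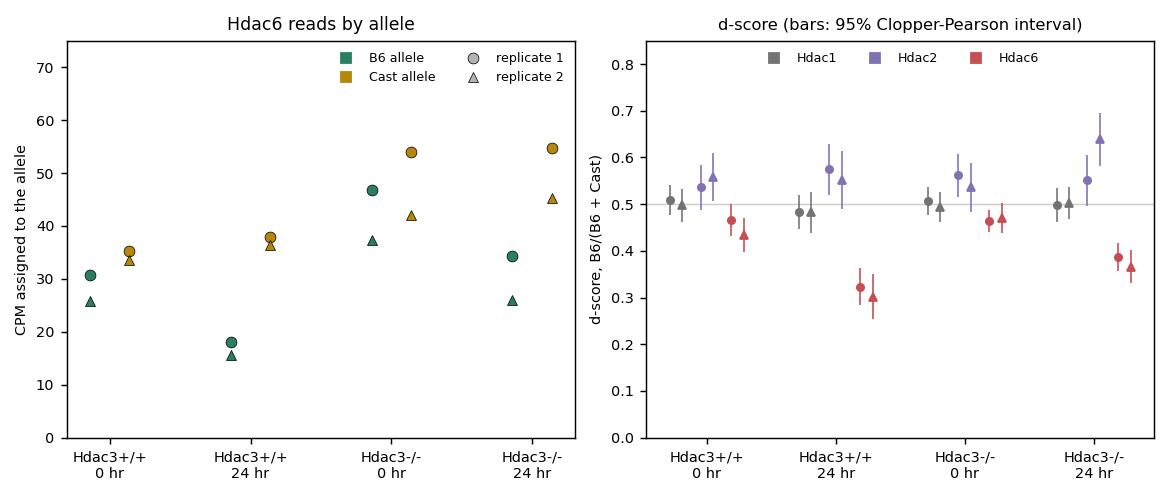
Left, CPM of *Hdac6* reads assigned to the B6 and the Cast allele (vertical axis) in each sample of the 4 groups. Right, d-score of *Hdac1*, *Hdac2* and *Hdac6* (vertical axis, B6 over B6 plus Cast reads) in each sample with 95% Clopper-Pearson intervals, where *Hdac6* is between 0.300 and 0.386 in the 4 samples with DOX and between 0.434 and 0.470 in the 4 without, and *Hdac1* is between 0.482 and 0.509 in all 8.

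In total counts, 116 of 533 X-linked genes were called in *Hdac3*-/- at 0 hr, 68 of them higher, and the median log2 change of the 533 was 0.02, against 0.51 for *Hdac6*, with 107 X-linked genes above it. At 24 hr 116 of 492 were called, 99 of them higher, and the median was 0.29, against 0.54 for *Hdac6*, with 142 above it. Of the 24 genes within 250 kb of *Hdac6* that were tested at 0 hr, 4 were called and the median change was 0.16. At that time 13.6% of all genes and 116 of the 533 X-linked genes were called, so this count is described only. *Porcn* (0.77) and *Suv39h1* (0.70) were higher and *Rbm3* (−0.46) and *Tfe3* (−0.41) lower in *Hdac3*-/-, all 4 named after their values were seen. Whether the position of *Hdac6* has a part in its higher level was not tested.

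The knockout samples stood apart from the parental ones over both times for *Hdac6*, above, and for *Hdac2*, below. Of all genes 16.7% stood apart above and 18.2% below in this way, and *Hdac2* was not called at either time. The promoter windows of these members are shown as a description. They are RefSeq windows of 300 bases, from 250 before to 50 after the annotated start, on GRCm38.p6 and written 5′ to 3′ on the gene's strand, with each CG in capitals. That of *Hdac6* is at chrX:7947840-7948139 (minus strand) and that of *Hdac2* at chr10:36974294-36974593 (plus strand).
Hdac6: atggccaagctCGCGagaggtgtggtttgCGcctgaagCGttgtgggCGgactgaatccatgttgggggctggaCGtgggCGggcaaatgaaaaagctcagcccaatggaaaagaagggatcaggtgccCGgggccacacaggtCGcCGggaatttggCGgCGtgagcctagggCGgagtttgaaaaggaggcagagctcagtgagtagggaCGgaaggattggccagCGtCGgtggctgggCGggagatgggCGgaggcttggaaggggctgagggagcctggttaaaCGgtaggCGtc
Hdac2: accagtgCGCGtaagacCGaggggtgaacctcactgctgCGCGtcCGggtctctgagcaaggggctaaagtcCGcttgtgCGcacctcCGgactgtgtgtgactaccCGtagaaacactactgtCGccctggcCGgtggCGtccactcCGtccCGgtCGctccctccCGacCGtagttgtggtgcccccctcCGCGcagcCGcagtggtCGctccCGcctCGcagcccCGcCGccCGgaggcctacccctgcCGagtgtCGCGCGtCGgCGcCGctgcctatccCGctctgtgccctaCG

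The *Hdac6* window holds 20 CG and the *Hdac2* window 36, where the median of 32817 windows is 7, and 24.8% and 5.59% of windows hold more. Motifs were searched as exact letters on both strands. A GC box (GGGCGG) is in both, as in 35.6% of all windows, and it contains a CG itself. A CCAAT box (CCAAT) is in the *Hdac6* window and not in that of *Hdac2*, and 37.4% of windows have it. Neither has a TATA box (TATAAA, 13.6% of windows) or an E-box (CACGTG, 7.15%). Of the 8 members with a window, the other X-linked one, *Hdac8*, has 6 CG, a CCAAT box and no GC box. Its window holds the letters TATAAA on the opposite strand alone, so this is given as a match of letters.

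*Hdac10*, the other class IIb gene (chromosome 15, 89123307 to 89128700, minus strand), had 2.86, 2.33, 2.90 and 1.57 CPM in *Hdac3*+/+ and 3.50, 1.63, 2.55 and 3.32 CPM in *Hdac3*-/-, from 11 to 59 reads. The samples overlapped, and the log2 difference was 0.03 at 0 hr (adjusted p = 0.976) and 0.35 at 24 hr (adjusted p = 0.645). No read of *Hdac10* was assigned to an allele in any of the 8 samples.

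Of the class IIa genes, *Hdac4* (chromosome 1, 91928779 to 92195699, minus strand) had 61.3, 55.0, 43.5 and 47.1 CPM in *Hdac3*+/+ and 60.2, 53.8, 63.2 and 49.4 CPM in *Hdac3*-/-. The parental samples were lower after DOX and the knockout samples overlapped between times, and the share of all genes that separate between times was not counted. *Hdac3*-/- differed from *Hdac3*+/+ by −0.01 at 0 hr (adjusted p = 0.96) and by 0.32 at 24 hr (95% interval −0.03 to 0.67, adjusted p = 0.216) on the log2 scale. Without knockout replicate 2 the 24 hr value was 0.50 (adjusted p = 0.0044), in a fit with 1 knockout sample and the spread of the parental duplicates. Of the 50-base runs of *Hdac4* 21.6% are shared with the noncoding gene *Gm26720*, which GENCODE places on the other strand within *Hdac4*. *Hdac5* (chromosome 11, 102194432 to 102230166, minus strand) had 23.3, 23.6, 28.9 and 26.0 CPM in *Hdac3*+/+ and 19.1, 22.4, 23.6 and 21.7 CPM in *Hdac3*-/-. Of its knockout samples 1 reached into the parental range, and its log2 differences of −0.16 at 0 hr (adjusted p = 0.517) and −0.28 at 24 hr (adjusted p = 0.29) did not pass the test. The microRNA gene *Mir8101* lies inside *Hdac5* on the same strand.

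*Hdac7* (chromosome 15, 97792664 to 97844502, minus strand) and *Hdac9* (chromosome 12, 34047580 to 34917095, minus strand) are the class IIa genes with few reads. *Hdac7* had 3.54, 2.50, 4.30 and 4.29 CPM in *Hdac3*+/+ and 2.43, 2.57, 2.37 and 2.42 CPM in *Hdac3*-/-, from 24 to 47 reads. At 24 hr both knockout samples were at 0.552 and 0.563 times the parental mean, and the log2 difference of −0.84 (95% interval −1.62 to −0.06) had an unadjusted p of 0.038 and an adjusted p of 0.153 in edgeR's quasi-likelihood test. At 0 hr it was −0.26 (adjusted p = 0.662). *Slc48a1* overlaps *Hdac7* on the other strand. *Hdac9* had 1.73, 1.25, 1.5 and 0.429 CPM in *Hdac3*+/+ and 0.95, 0.257, 1.85 and 0.806 CPM in *Hdac3*-/-, from 3 to 23 reads, with wide overlap. Its log2 differences were −1.20 at 0 hr (adjusted p = 0.247) and 0.39 at 24 hr (adjusted p = 0.762). Without knockout replicate 1 at 0 hr the value was −2.49 (adjusted p = 0.017), on the 3 reads of the remaining knockout sample.

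*Hdac11* (chromosome 6, 91156665 to 91174692, plus strand), the class IV gene, had 1.43, 2.25, 1.70 and 0.572 CPM in *Hdac3*+/+ and 2.91, 3.25, 2.90 and 1.81 CPM in *Hdac3*-/-. The knockout samples were above the parental samples of their own time, from 4 to 49 reads per sample, and overlapped the parental range over both times. The share of all genes that separate within a time was not counted, so the order within a time is a description. The log2 difference was 0.76 at 0 hr (95% interval −0.13 to 1.64, adjusted p = 0.229) and 0.98 at 24 hr (−0.31 to 2.27, adjusted p = 0.299). Of its 50-base runs 15.3% are shared with another gene, most of them with *Gm44002*, which GENCODE places on the other strand within *Hdac11*.

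The intervals give the range of folds that the samples of each gene allow. For *Hdac1*, *Hdac2*, *Hdac4* and *Hdac5*, with 182 reads or more in every sample, the 95% intervals of the fold at 0 hr lay between 0.699 and 1.35. For the 5 members with at most 126 reads in a sample, they ran from 0.640 to 1.23 for *Hdac8*, from 0.478 to 1.45 for *Hdac7*, from 0.508 to 2.04 for *Hdac10*, from 0.915 to 3.12 for *Hdac11* and from 0.159 to 1.198 for *Hdac9*. A fold within a gene's own interval was not excluded by these samples. The width reflects the spread between samples as well as depth.

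DOX itself was compared within each genotype in a fit of all 8 samples with no term for the replicate number. In total counts 0 of the 10 were called in *Hdac3*+/+, where 0.189% of 13771 genes were, and 0 in *Hdac3*-/-, where 0.0218% were. 1 member, *Hdac4*, had an unadjusted p under 0.05 in *Hdac3*+/+, at −0.36 on the log2 scale (95% interval −0.68 to −0.05, adjusted p = 0.595), and 0 had in *Hdac3*-/-. Of all 13771 genes 1014 had such a p in *Hdac3*+/+ and 277 in *Hdac3*-/-. *Hdac6* changed by −0.20 (adjusted p = 0.885) in *Hdac3*+/+ and by −0.15 (adjusted p = 1.0) in *Hdac3*-/-, values that combine the lower B6 reads and the Cast reads given above. The median X-linked gene changed by −0.55 and −0.24. *Hdac8* changed by −0.46 (adjusted p = 0.752) and 0.115 (adjusted p = 1.0). In the interaction of genotype and DOX 0.0% of the 13771 genes were called by edgeR's quasi-likelihood test, 263 had an unadjusted p under 0.05, none of them among the 10, and DESeq2 called 1 gene. DESeq2 called 0 of the 10 in these 3 comparisons as well. The calls depended on the replicate term. With a block for the replicate number within each genotype, edgeR called 3 members with DOX in *Hdac3*+/+, where 1351 of 13771 genes were called. They were *Hdac1*, *Hdac4* and *Hdac6*, with values given in the last section. That fit called 0 members with DOX in *Hdac3*-/- and 0 in the interaction.

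The d-scores of the autosomal members are given beside those of *Hdac6*, and their balance differed from gene to gene. *Hdac1* stayed between 0.482 and 0.509 on 533 to 1108 allelic reads. *Hdac2* was between 0.536 and 0.640, above 0.5 in all 8 samples. *Hdac4* ranged from 0.457 to 0.588 and *Hdac5* from 0.394 to 0.598. *Hdac7*, on 12 to 33 allelic reads, was at 0.758, 0.846, 0.789 and 0.917 in *Hdac3*+/+ and at 0.560, 0.667, 0.462 and 0.750 in *Hdac3*-/-. Each knockout sample was below every parental sample, but the closest pair, 0.750 and 0.758, had overlapping Clopper-Pearson intervals (0.476 to 0.927 and 0.577 to 0.889). The share of all genes whose d-scores separate in this way was not counted. At 0 hr its B6:Cast difference did not pass the test (log2 −1.25, adjusted p = 0.705). *Hdac8*, the other X-linked member, had 2 to 17 allelic reads and a d-score in 2 of 8 samples, 0.353 and 0.400, so silencing of its B6 allele could not be followed. *Hdac9* had at most 9 allelic reads in a sample, and *Hdac11* had a d-score in 6 samples, from 0.412 to 0.700.

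The members were also summed, as TPM, to see how the HDAC transcripts of a cell were shared out. The 10 genes summed to 355, 340.3, 358 and 336 TPM in *Hdac3*+/+ and to 359, 374, 363 and 379 TPM in *Hdac3*-/-. The 4 knockout sums were above the 4 parental ones, the closest pair being 359 and 358 TPM. TPM was scaled to each sample's own total, without the TMM factors used for CPM, which ran from 0.97 to 1.03. Orders of sums this close may depend on that scaling. With *Hdac3* included the sums were 391, 378, 395 and 374 TPM against 364, 380.0, 368 and 385 TPM, and the genotypes overlapped. *Hdac1* and *Hdac2* together made up 67.1%, 68.7%, 71.2% and 74.0% of the sum of the 10 in *Hdac3*+/+ and 59.5%, 67.6%, 60.7% and 70.3% in *Hdac3*-/-. *Hdac6* made up 21.9%, 21%, 19.3% and 16.8% against 30.9%, 23.6%, 29.1% and 20.7%. The higher *Hdac6* share and lower *Hdac1* level of knockout replicate 1 were seen at both times. The sums and shares are a description, with no test.

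**Figure D4:**
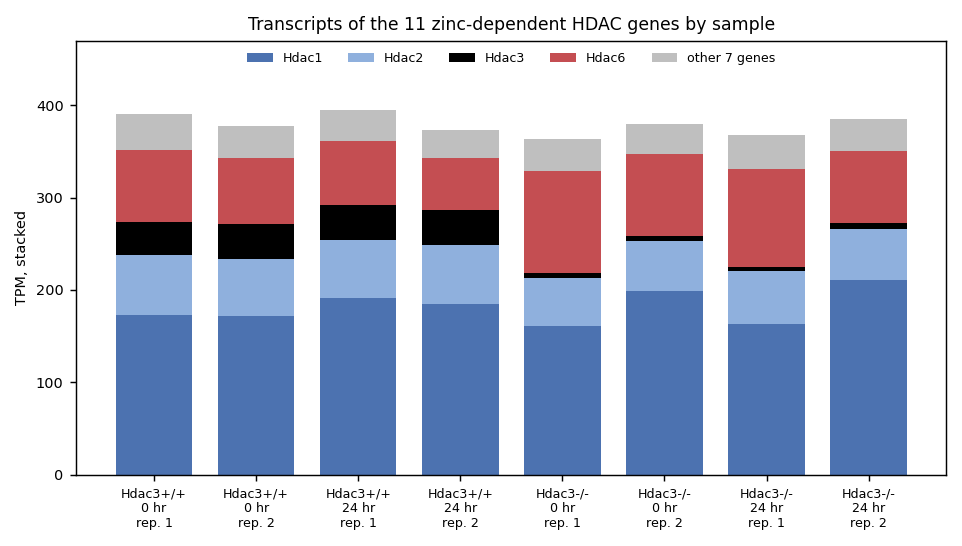
TPM of *Hdac1*, *Hdac2*, *Hdac3*, *Hdac6* and the other 7 genes, stacked (vertical axis, starting at 0), in each of the 8 samples (horizontal axis). The stacks reach between 364 and 395 TPM, with the *Hdac3* segment between 35.8 and 37.9 TPM in *Hdac3*+/+ and between 4.998 and 6.37 TPM in *Hdac3*-/-.

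The subunits that work with these enzymes were read from lists, each count standing beside the 13.6% of all genes called at 0 hr and 11.3% at 24 hr. Of 13 Sin3 subunits, 0 were higher and 1 lower in *Hdac3*-/- at 0 hr, and 0 and 2 at 24 hr, with *Brms1* at −0.64 (adjusted p = 0.029) and −0.86 (adjusted p = 0.019). Of 10 NuRD subunits 2 were lower at both times. These were *Chd3*, a remodelling ATPase that went from 66.8 and 84.3 to 21.5 and 30.3 CPM at 0 hr (−1.54, adjusted p = 0.0033), and *Mta1*, which went from 284 and 299 to 201 and 168 CPM (−0.64, adjusted p = 0.011). Of the histone-binding pair that Sin3 and NuRD share, X-linked *Rbbp7* was higher at both times (0.43 and 0.57) and *Rbbp4* was not called. Of 9 CoREST subunits 2 were higher at 0 hr, X-linked *Zmym3* (0.81, adjusted p = 0.0095) and the demethylase gene *Kdm1a* (0.36, adjusted p = 0.035), and 1, *Zmym3*, at 24 hr (1.12). Of 3 MiDAC subunits *Trerf1* was lower at both times (−0.98 and −1.01).

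Of 5 NCoR/SMRT genes, the complex of HDAC3 itself, 2 were higher at 0 hr and 1 at 24 hr. They were X-linked *Tbl1x*, at 190.4 and 184 against 269 and 289 CPM (0.59, adjusted p = 0.0068) and again at 24 hr (0.79), and *Tbl1xr1* (0.42, adjusted p = 0.044). *Tbl1x* was also the 1 partner gene called with DOX in *Hdac3*+/+ (−0.73, adjusted p = 0.021). Of 4 MEF2 genes, the partners of class IIa HDACs, 2 had enough reads to be tested, and *Mef2a* was lower at 0 hr (−0.59, adjusted p = 0.033) and not called at 24 hr. Median log2 changes at 0 hr were −0.12 for Sin3, −0.15 for NuRD, 0.04 for CoREST, 0.05 for MiDAC and 0.24 for NCoR/SMRT. The sirtuins, deacetylases that need NAD instead of zinc, had 2 of 7 higher and 1 lower at 0 hr and 1 and 1 at 24 hr. *Sirt2*, another tubulin deacetylase, had 23.8 and 20.1 CPM in *Hdac3*+/+ and 59.3 and 43.9 CPM in *Hdac3*-/- at 0 hr (1.25, adjusted p = 0.0056), and *Sirt1* was higher as well (0.64, adjusted p = 0.025). Of 10 histone acetyltransferase genes 1 was higher, *Kat6b* (0.44, adjusted p = 0.019), and 1 lower, *Crebbp* (−0.44, adjusted p = 0.017), at 0 hr, and both also passed at 24 hr.

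Genes whose level ran most like that of a member over the 8 samples were searched among 7421 genes with at least 100 reads in every sample, by Pearson's r of log2 CPM. The 5 members with that depth were used, and because the points are the same 8 libraries of 4 groups, the values are a description. For *Hdac6* they were *Vezf1* (0.98), *Dcaf4* (0.98) and *Klhl42* (0.98). For *Hdac1* they were *Erlin1*, *Usp33* and *Surf6* (0.98 to 0.99), and for *Hdac2* *Twf1*, *Tom1l1* and *Lamc1* (all 0.98). *Hdac4* ran with *Lnpk*, *Pkd1* and *Cnot6l* (0.94 to 0.97) and *Hdac5* with *Dnaaf2*, *Tbcd* and *Cdyl2* (0.95 to 0.96).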

How the data were processed

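RNA-seq of 8 samples was used. For each sample the authors deposited a table with a row per gene symbol that holds the total read counts over exons, B6 counts, Cast counts and the d-score. This is a fraction, B6 over B6 plus Cast reads, and the authors gave it where a gene had 10 allelic reads or more. The deposited counts are not normalized. According to the study's methods and the submitters' processing notes, rRNA reads were removed, the rest were mapped to mm10 with TopHat2 2.1.0 and refFlat, and exonic reads were counted by strand with featureCounts 1.5.1. How RNA-seq reads were split by allele is not given in the sources used here.

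Total counts were tested here with edgeR 4.0.16 (R 4.3.3), quasi-likelihood test, with TMM factors, on genes that had at least 10 reads in at least 2 samples of the fit, with Benjamini-Hochberg adjustment over all genes and a threshold of 0.05. The genotypes were compared in the 4 samples of each time, and DOX and its interaction with genotype in all 8. The B6:Cast ratio was tested with edgeR on both allelic counts of each sample, with a sample effect and a B6 term per group, for 9595 genes with at least 10 allelic reads in every sample. TPM used union exon lengths of GENCODE M21 on GRCm38, which is mm10, and 660 of 24542 symbols had no match and no length. Runs of 50 bases shared between a member's transcripts and those of other genes were counted in GENCODE M21. Single d-scores have Clopper-Pearson intervals. Alternatives were DESeq2 1.42.0, limma 3.58.1 with voom, other normalization and filters, a replicate block and leaving out each sample. Summaries and plots were made in Python 3.11.15 with pandas 2.3.3, matplotlib 3.10.9, scipy 1.17.1 and numpy 2.4.6.

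Depth was between 6940375 and 17125156 reads per sample, so genes with few reads have wide intervals. The members, the lists of partner and marker genes and the tests were chosen with earlier results of these data known. By rule every member is named, with *Hdac3*, *Xist*, at most 2 called genes of each list (those with the smallest adjusted p), and the 3 genes most like each member that had at least 100 reads in every sample.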

Additional observations from a re-analysis of the deposited data

Results flagged for a closer look

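*Hdac7* was flagged because its mean CPM was higher with DOX in *Hdac3*+/+ and slightly lower in *Hdac3*-/-. Both *Hdac3*+/+ samples were higher at 24 hr than at 0 hr, with a log2 ratio of mean CPM of 0.51 (0.5088), and both *Hdac3*-/- samples were lower, with a ratio of −0.06 (−0.06263). The directions are a count of samples and were not tested in themselves. The change with DOX had an unadjusted p of 0.114 in *Hdac3*+/+ and 0.844 in *Hdac3*-/- in edgeR's quasi-likelihood test. The interaction in edgeR's quasi-likelihood test was −0.56 on the log2 scale with an adjusted p of 1.0, on 24 to 47 reads per sample.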

How the results depend on the processing

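Leaving out each sample in turn gave 0 to 3 members and 391 to 3408 genes called between genotypes at 0 hr (1 and 1831 with all samples), and 0 to 2 members and 223 to 3302 genes at 24 hr (0 and 1457). The low ends are fits with 1 *Hdac3*+/+ sample, which is then assumed to vary like the clones, and the high ends fits with 1 *Hdac3*-/- sample, assumed to vary like the parental duplicates. It gave 2 to 53 genes for DOX in *Hdac3*+/+ (26) with 0 members, 83 to 158 for its B6:Cast ratio (154) with *Hdac6* the 1 member each time, 3 to 21 for the B6:Cast interaction (20) and 12 to 121 for the B6:Cast ratio between genotypes at 0 hr (64). A limit of 1 on the absolute log2 change left 0 members and 848 genes at 0 hr, 672 genes at 24 hr and 6 genes for DOX in *Hdac3*+/+. A fit of all 8 samples called 0 members at 0 hr and 1 at 24 hr. DESeq2 called 1 member at 24 hr, 119 and 16 genes for DOX in *Hdac3*+/+ and *Hdac3*-/-, and 1 for the interaction, and voom with limma called 12 genes for DOX in *Hdac3*+/+. Without a filter on low counts the calls were 3107 genes at 0 hr, 2641 genes and 1 member at 24 hr, 275 and 36 genes for DOX, and 6 for the interaction. Adjusting over X-linked genes alone called 1 member, *Hdac6*, for the B6:Cast ratio with DOX in *Hdac3*-/-. The cause of these differences was not tested.

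Samples of different groups share replicate numbers, but with 2 numbers a comparison has no more than 2 pairs. Deviations of same-numbered samples from their group means correlated at 0.49 between times in *Hdac3*+/+, 0.82 between times in *Hdac3*-/- and 0.28 to 0.34 between genotypes, over 7422 genes. With the replicate number as a block 3168 genes were called at 0 hr, *Hdac6* was called at both times (adjusted p = 0.0044 and 0.011, edgeR) as the 1 member, and DOX gave 180 and 13 genes in *Hdac3*+/+ and *Hdac3*-/-, and the B6:Cast ratio at 0 hr gave 109 genes. With a block within each genotype DOX in *Hdac3*+/+ gave 1351 genes and 3 members (*Hdac1* at 0.18, *Hdac4* at −0.37 and *Hdac6* at −0.20 on the log2 scale, adjusted p = 0.030, 0.0033 and 0.038, edgeR), DOX in *Hdac3*-/- 224 genes and the interaction 158, and in the B6:Cast ratio DOX in *Hdac3*-/- gave 90 genes with 1 member (*Hdac6*, adjusted p = 0.0001) and the interaction 70 genes. Of the members' own values over all alternatives, 940 kept direction and side of the threshold, 15 passed where they had not, 5 no longer passed, all 5 of them *Hdac6* at 0 hr between genotypes, and 53 uncalled values changed sign. No called value changed sign. Depth limits *Hdac7*, *Hdac8*, *Hdac9*, *Hdac10* and *Hdac11*, with at most 126 reads in a sample.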
